A study of Homo sapiens with 18 samples.

Results

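Whole-cell mRNA of HEK293 cells, a human embryonic kidney line, was compared between a clonal line in which Cas9 with a guide against UFM1 had been used (UFM1-KO) and unedited HEK293 cells (WT). The comparison took the mRNA libraries that the labels name for these lines, 2 of UFM1-KO and 2 of WT, lettered a and b in each, which are 4 of the 18 libraries of the series. A second clonal knockout, UFSP2-KO, with 2 mRNA libraries, entered the model to estimate the spread between replicates, and 12 libraries of ribosome footprints from the membrane and cytosolic fractions of the 3 lines gave a separate measurement of the same transcripts. All cells were grown in DMEM with serum, and the labels list no drug or stress for any group. Per the labels' protocols, the RNA came from Triton lysates cleared of debris, and stranded libraries were made after removal of ribosomal RNA. UFM1-KO was 1 clone, so the effect of the knockout and other differences between clones cannot be told apart, and the labels list no Cas9 treatment for WT. The labels do not say that a and b were separate cultures, so the p-values measure the spread between these libraries, which may be technical.

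UFM1 is a small ubiquitin-like protein. A dedicated activating enzyme, a conjugating enzyme and a ligase complex held at the endoplasmic reticulum attach it to lysines of target proteins, and the protease UFSP2 takes it off again. RPL26, which belongs to the large subunit of the ribosome and sits near the exit of the nascent chain tunnel, is a known target, and ribosomes on the endoplasmic reticulum are where the modification has mainly been studied. The mRNA comparison addresses which transcripts differ in abundance in the line labelled UFM1-KO, before any question about their translation.

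The tables gave counts per Ensembl transcript and did not pair the transcript IDs with gene names, and 0 of the IDs could be matched to a symbol in the tables at hand. UFM1 itself was therefore not looked up, the knockout was not checked in the counts, and no gene list, marker or promoter was examined. A feature below is a transcript entry, or a set of entries with identical counts in all 6 mRNA libraries, named by its first transcript. Of 98334 entries, 43611 had no length and 0 counts and were left out. The 48110 entries with a length and a count became 36328 features, and 33671 passed the filter on low counts and were tested. Many entries carry equal or nearly equal counts, as when a read is counted for each of several isoforms, though how reads were assigned is not given. A number of features is therefore not a number of genes.

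The 4 libraries held 51760318 (WT a), 58264307 (WT b), 68675420 (UFM1-KO a) and 51111414 (UFM1-KO b) counts. CPM below is the edgeR count per library size after TMM scaling, in its usual unit, except where footprint CPM is given without TMM. Across the 22558 features whose mean over the libraries reached 5 CPM, the SD of the log2 difference between the libraries of a line was 0.35 in WT and 0.37 in UFM1-KO. UFM1-KO library b was as near to WT library a (SD 0.37, r = 0.967 across features) as it was to its own replicate (SD 0.37, r = 0.967). It was farther from WT library b (SD 0.45, r = 0.949). UFM1-KO library a differed more from both WT libraries, with an SD of 0.49 against WT a and 0.57 against WT b. The share of counts in the 100 most abundant features was 12.8% and 11.7% in WT and 12.7% and 13.8% in UFM1-KO, so the lines overlapped (two-sided exact permutation p = 0.667, where 2 libraries against 2 can give no less than 0.333).

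Most transcripts in UFM1-KO lay close to their WT level (quartiles of the log2 change -0.32 and 0.28), and of those that changed more fell than rose. The test called 618 of 33671 features (1.84%), of which 135 rose (0.401%) and 483 fell (1.43%). The falls were also larger. With the summed count of a line set to at least 3 where it was lower, 191 of the 483 falls were over 4-fold and 108 over 16-fold, against 37 and 1 of the 135 rises. The median log2 change was -1.66 among the falls (quartiles -3.73 and -1.21; -1.68 with the floor of 3 counts) and 1.55 among the rises (quartiles 1.18 and 2.07), beside -0.005 over all features tested. In 37 of the features that fell, both UFM1-KO libraries held 0 counts. Over all 33671 features tested, both UFM1-KO libraries held 0 counts in 112 and both WT libraries in 27.

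**Figure D1:**
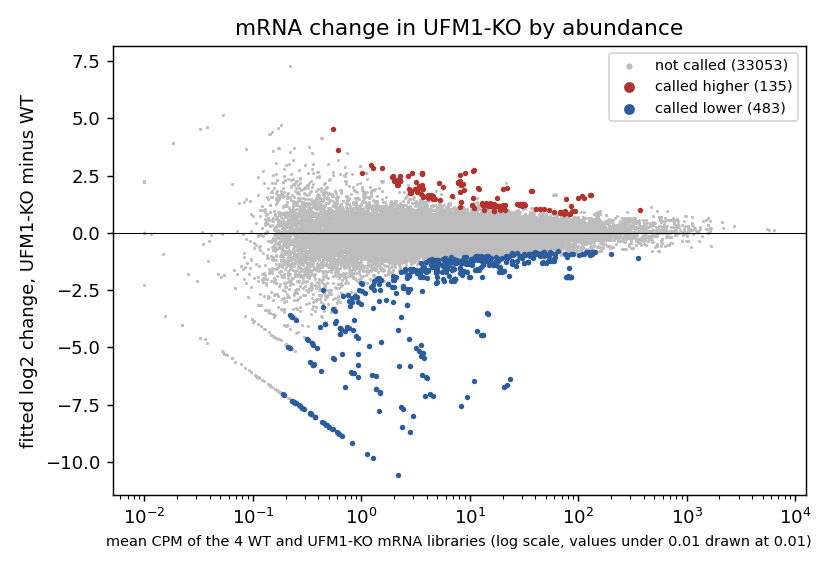
Fitted log2 change of mRNA in UFM1-KO against WT (y axis) by mean CPM of the 4 libraries (x axis, log scale), 1 point per feature, with the 135 features called higher in red, the 483 called lower in blue and the others in grey. Most points lie around 0, and the blue points reach far lower than the red points reach up; the straight lower edge is formed by features with 0 counts in UFM1-KO, whose fitted change depends on the prior count.

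Calls were made with edgeR's quasi-likelihood test at a Benjamini-Hochberg adjusted p under 0.05. Before adjustment 5232 features (15.5%) had a p under 0.05. In all 618 called features the 2 UFM1-KO libraries lay on 1 side of both WT libraries, as they did in 48.2% of all features tested. Many called features had nearly the same counts. When features whose counts differed by no more than 5% plus 1 count in each of the 6 libraries were joined, the 135 rises formed 114 groups and the 483 falls 395, with up to 10 features in a group. Isoforms whose counts differed more were not joined.

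The number called moved with single libraries. Without WT library b 128 features were called and without WT library a 204, while 365 were called without UFM1-KO library a. Without UFM1-KO library b, the one that lay near WT, the count was 1393, of which 668 rose and 725 fell, so the excess of falls was small there. In these fits the line with 1 library left is assumed to vary like the others. Of the 618 features, 102 were called in each of the 4 fits, 11 as rises and 91 as falls, and 72 of these 102 differed over 4-fold.

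**Figure D2:**
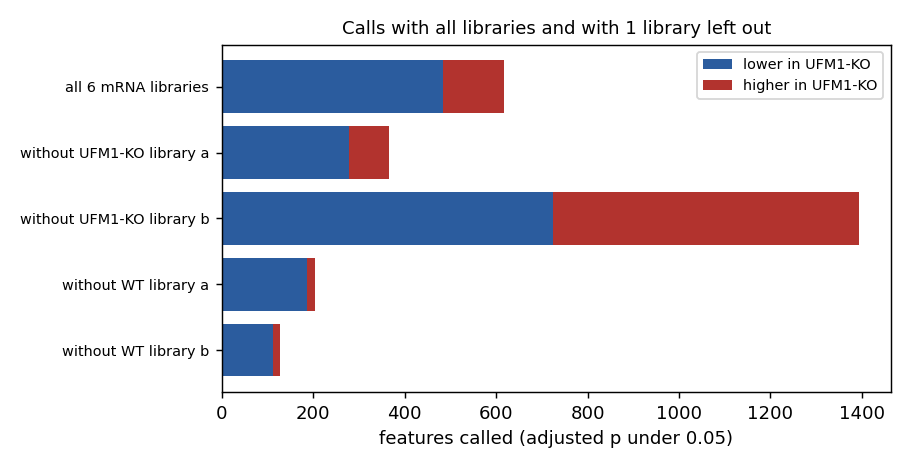
Number of features called higher (red) and lower (blue) in UFM1-KO than in WT with all 6 mRNA libraries and with 1 WT or UFM1-KO library left out; bars start at 0. The total ranges from 128 without WT library b to 1393 without UFM1-KO library b, beside 618 with all libraries, and falls outnumber rises in every bar.

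The features named here had to reach a mean of 5 CPM in the higher line. The largest rise among them was that of ENST00000375535.3, an entry with a deposited length of 164, read here as coding length in codons. Its mRNA stood at 3.76 CPM in WT library a, 1.94 in WT b, 17.0 in UFM1-KO a and 20.7 in UFM1-KO b. Both UFM1-KO libraries were above both WT libraries. The log2 change was 2.73 (SE 0.40, edgeR adjusted p = 0.00196, n = 2 libraries per line). The next largest rise, ENST00000375534.7 with a length of 163, was nearly the same measurement: its counts were equal to those of ENST00000375535.3 in WT (157 and 94) and slightly lower in UFM1-KO (931 and 818 against 935 and 832). Its log2 change was 2.71 (SE 0.40, edgeR adjusted p = 0.00206). Neither rise was called without WT library b, the lower of the WT libraries, where the log2 changes were 2.33 and 2.31 (edgeR adjusted p = 0.113 and 0.114), nor by DESeq2 (adjusted p = 0.054 for both). Over the alternatives with edgeR the adjusted p of ENST00000375535.3 ranged from 1.94e-10 to 0.113.

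The rise of ENST00000375534.7 was also present in ribosome footprints of the membrane fraction, which come from libraries that the mRNA comparison did not use. Footprints stood at 22.5 and 13.7 CPM in WT libraries a and b and at 124 and 89.6 CPM in UFM1-KO, with no overlap. The log2 change was 2.65 (SE 0.29, edgeR adjusted p = 4.17e-06), close to that of the mRNA. In the cytosol the counts were 1 and 0 in WT and 1 and 0 in UFM1-KO, too few for a comparison. In WT this transcript had far more footprints at the membrane than in the cytosol (log2 6.21, SE 0.75).

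Among called features with at least 5 CPM in the higher line, ENST00000010404.6 had the largest fall by fitted log2 change. It is a set of 4 transcript entries with identical counts and a length of 136. It held 235 and 269 counts in the WT libraries, or 5.63 and 5.54 CPM, and 1 count and 0 counts in UFM1-KO a and b. The transcript was thus near or below detection in the knockout: a count of 0 in UFM1-KO b allows up to 0.0748 CPM. The summed level in WT was 532 times that in UFM1-KO, with an exact 95% interval of 94.98 to 21039 that covers counting error only. The fitted log2 change was -8.71 (SE 0.56, edgeR adjusted p = 2.17e-07). Its membrane footprints also fell. They were 17.98 and 29.5 CPM in the WT libraries and 0.185 and 0.536 CPM in those of UFM1-KO (log2 change -6.27, SE 0.55, edgeR adjusted p = 1.09e-07), which were 1 count in each UFM1-KO library.

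ENST00000566827.5, a single entry with a length of 651, was the next largest fall by fitted log2 change under the same 5 CPM condition. Its mRNA was at 5.92 and 5.98 CPM in WT, from 247 and 290 counts, and at 2 counts and 0 counts in UFM1-KO. The WT level was 283 times that of UFM1-KO (exact 95% interval 78.0 to 2345, counting error only), and the fitted log2 change was -7.97 (SE 0.62, edgeR adjusted p = 2.34e-06). No footprint entry matched it. The order of the falls rests on 1 and 2 counts: with the floor of 3 counts the log2 change was -7.56 for ENST00000566827.5 and -7.47 for ENST00000010404.6, the second and the third of the falls that met the rule. Both falls were called in each of the fits that left out 1 library and by DESeq2.

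The levels of these transcripts in UFSP2-KO, where UFM1 was not the target, differed from those in UFM1-KO. Between these knockouts edgeR called 4904 of 33671 features (14.6%), the named transcripts among them. As those were chosen for their levels in the same UFM1-KO libraries, their calls are no separate support. ENST00000375535.3, high in UFM1-KO, had 0 counts in UFSP2-KO a and 4 in UFSP2-KO b, or 0.141 CPM. ENST00000010404.6, lost in UFM1-KO, stood at 13.9 and 18.7 CPM in UFSP2-KO, above both WT libraries. ENST00000566827.5 stood at 2.35 and 2.96 CPM there, between the other lines.

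**Figure D3:**
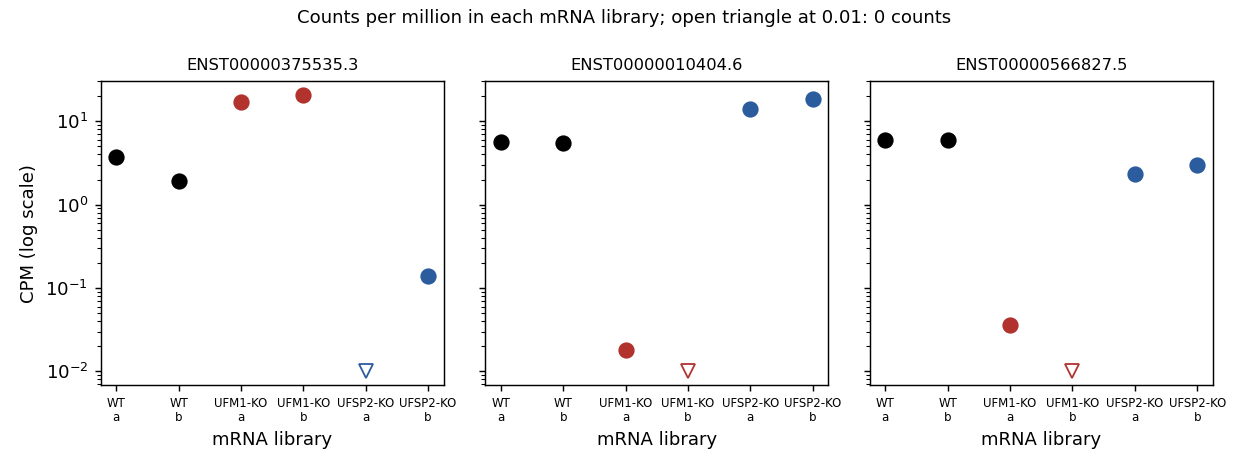
CPM (y axis, log scale) in each of the 6 mRNA libraries (x axis), with WT in black, UFM1-KO in red and UFSP2-KO in blue. Shown are the largest rise and the 2 largest falls by fitted log2 change among called features with at least 5 CPM in the higher line. Open triangles drawn at 0.01 mark libraries with 0 counts. ENST00000375535.3 is highest in UFM1-KO at 17.0 and 20.7 CPM, while ENST00000010404.6 and ENST00000566827.5 have at most 2 counts in either UFM1-KO library.

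The features called as changed were on average less abundant in WT than features as a whole. Those that rose had medians of 5.36 and 4.84 CPM in the WT libraries and 16.6 and 15.6 CPM in UFM1-KO. Those that fell had medians of 7.88 and 9.44 CPM in WT and 2.41 and 2.97 CPM in UFM1-KO. Over all features tested the medians were 10.2 to 10.6 CPM in the 6 libraries. The contrasts that chose these features fix the direction of the WT and UFM1-KO medians, while UFSP2-KO is not part of that contrast, although its libraries entered the filter, the scaling and the estimate of spread. The features that rose in UFM1-KO had medians of 1.41 and 1.87 CPM in UFSP2-KO, lower than in WT. Of the 135, 24 (17.8%) were under 0.1 CPM in both UFSP2-KO libraries, beside 1.05% of all features tested. The features that fell in UFM1-KO had medians of 7.58 and 7.18 CPM in UFSP2-KO, near those of WT, and 2 of the 483 were under 0.1 CPM in both UFSP2-KO libraries. In the model without the UFSP2-KO libraries, 45 of 444 rises (10.1%) were under 0.1 CPM in both UFSP2-KO libraries, beside 1.07% of the features tested. The thresholds of these counts were set after the values were seen.

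**Figure D4:**
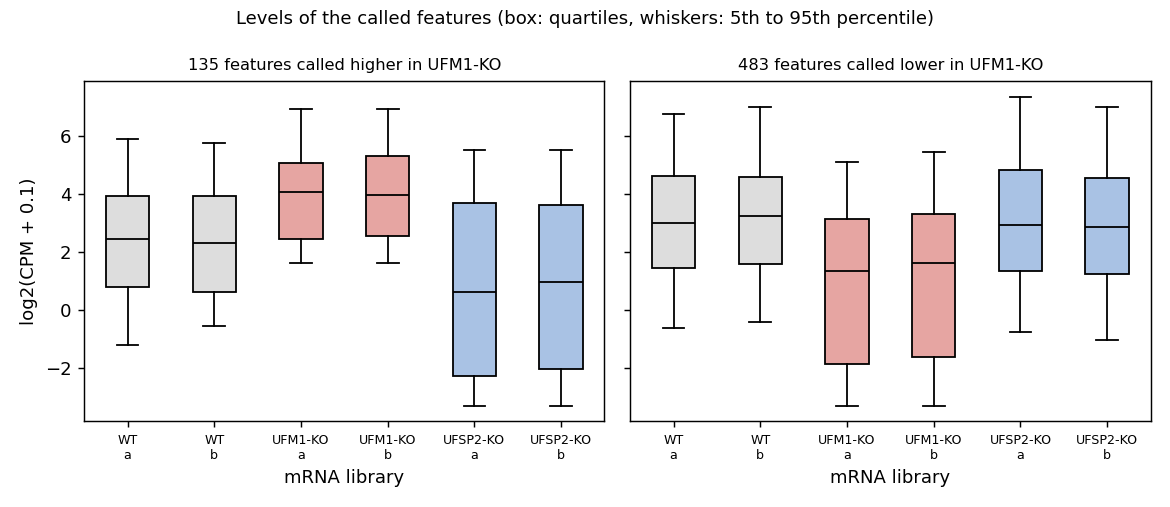
Level in each mRNA library, as log2(CPM + 0.1), of the 135 features called higher (left) and the 483 called lower (right) in UFM1-KO; boxes are quartiles with the median, whiskers the 5th to 95th percentile over features. In the left panel the UFSP2-KO medians of 1.41 and 1.87 CPM lie below those of WT at 5.36 and 4.84 CPM. The gap was narrower for the 444 rises called without the UFSP2-KO libraries (3.91 and 6.07 against 7.71 and 7.35 CPM, not drawn). In the right panel UFSP2-KO and WT lie close together.

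Loss of a transcript was more frequent than gain. In 38 features both WT libraries were above 1 CPM and both UFM1-KO libraries under 0.1 CPM. All 38 were called, which so wide a gap makes nearly certain. Of these, 28 were also called in each of the 4 fits with 1 library left out. In UFSP2-KO, 21 of the 38 were above 1 CPM in both libraries and 0 were under 0.1 CPM in both. Under 0.1 CPM in both were 1.05% of all features tested, so 0 of 38 is near that share. The share of all features above 1 CPM in both is not given here, so the 21 have no background beside them. The reverse pattern, above 1 CPM in both UFM1-KO libraries and under 0.1 CPM in both WT libraries, was found in 1 feature. That feature was also under 0.1 CPM in both UFSP2-KO libraries. The thresholds were set after the values were seen, and features with nearly equal counts were not joined here.

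Footprints addressed whether the mRNA changes were carried into the pool of translating ribosomes. Of the 618 called features, 275 had a match in the footprint tables by transcript ID and length, 51 rises and 224 falls, to 273 distinct footprint features. All 275 were counted, also those with too few footprints for a test. Footprint CPM in this paragraph is the count per library total without TMM, a scaling that differs from that of the edgeR calls. In the membrane fraction, 50 of the 51 rises and 203 of the 224 falls had a mean CPM that differed from WT in the same direction as the mRNA, or 92% in all, beside 62.3% of the 13814 matched features. In the cytosol 45 of 51 and 163 of 224 did, or 75.6% beside 58.0%, and in 36 of the 275 the cytosol means were equal, all with 0 cytosol footprints in both lines. Matched falls had a median of 5.27 CPM in WT and 2.48 CPM in UFM1-KO membrane footprints, and matched rises 14.1 and 30.7 CPM.

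Of the 275, 195 passed the filter on low footprint counts. In the membrane fraction 53 of them were called by edgeR, 17 higher and 36 lower, with 0 in the opposite direction to the mRNA. The same test called 139 of all 11065 footprint features (1.26%), 57 higher (0.515%) and 82 lower (0.741%). Among all 10964 mRNA features matched to tested footprint features, 137 were called at the membrane. Of these, 133 went in the direction of the mRNA and 4 in the opposite one, so equal direction was frequent there too. In the cytosol 25 were called, 2 higher and 23 lower, again with 0 opposite, beside 94 of 11065 (0.85%), 18 higher (0.163%) and 76 lower (0.687%). Over all matched features 100 were called in the cytosol, 91 in the direction of the mRNA and 9 opposite. Features with few footprints could pass the filter through the line in which they were high, so these counts describe the tested features and do not extend to the 80 that were not tested. Without any 1 of the 4 membrane libraries the total of membrane calls was 14 to 28, and the cytosol total was 9 without WT cytosol library b, with 0 higher. The direction of the cytosol calls turned without UFM1-KO cytosol library b, where 23 were higher and 6 lower.

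**Figure D5:**
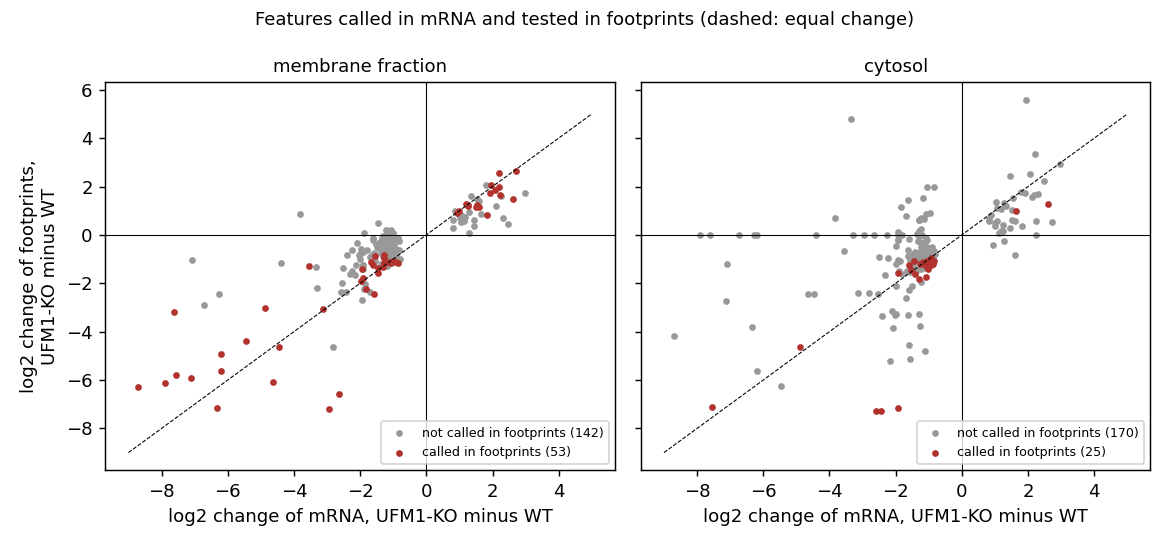
Log2 change of footprints in UFM1-KO against WT (y axis) by log2 change of mRNA (x axis) for the 195 features called in mRNA and tested in footprints, in the membrane fraction (left) and the cytosol (right), with features called in footprints in red and the dashed line at equal change. All 53 red points on the left and all 25 on the right lie in the quadrants of equal direction. Over all matched features called in footprints, 133 of 137 at the membrane and 91 of 100 in the cytosol had equal direction. Grey points on the line at 0 in the cytosol have few or no counts in either line.

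Membrane-enriched transcripts are those whose WT footprints lie mainly in the fraction that digitonin leaves behind. In cells generally, such transcripts largely encode proteins that enter the endoplasmic reticulum. They were defined on WT footprints by more than 2-fold enrichment at the membrane over the cytosol, at an adjusted p under 0.05 by edgeR. Of the 10964 mRNA features matched to tested footprint features, 2488 were membrane-enriched and 8476 were not. In mRNA 73 of the 2488 were called (2.93%), 20 higher and 53 lower, against 122 of the 8476 (1.44%), 20 higher and 102 lower, with 1.78% over both. Membrane-enriched features were less abundant, with a median of 12.8 CPM against 18.5. Within quintiles of abundance over all features tested, their share of calls was higher in each of the 5, from 7.08% against 3.03% in the lowest to 1.74% against 1.34% in the highest. No test was made of this difference, and isoforms of 1 gene are counted separately in it. A feature also needed enough WT footprints to be called membrane-enriched, which favours features well expressed in WT. The part of this selection in the shares was not tested. The median log2 change of membrane-enriched features was -0.02, against 0.02 for the others. The difference of -0.04 was about the spread between libraries of a line (SD 0.045), and it lay between -0.069 without WT library a and 0.0086 without WT library b.

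The change was also set against deposited length. The median log2 change was 0.04 in the shortest quintile (3 to 176) and -0.05 in the longest (764 to 33404). The difference of -0.09 was smaller than the spread of the same quantity between libraries of a line (SD 0.17), and it was -0.26 without WT library a and 0.074 without WT library b. The share of called features was 1.12% in the shortest quintile, 33 higher and 43 lower, and 2.5% in the longest, 20 higher and 148 lower. In the quintiles between, from shorter to longer, it was 1.64%, 2.31% and 1.61%, so it did not rise steadily with length. Abundance moved with length, from a median of 5.19 CPM in the shortest to 19.8 CPM in the longest quintile, and its part in these shares was not tested. By abundance alone, the share called was 2.27% in the lowest quintile and 1.47% in the highest.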

How the data were processed

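The deposited tables hold raw counts per versioned Ensembl transcript with a length, without headers. The submitters' processing notes list TopHat2 2.1.1 and the genome build GRCh38; which program counted, with which strand setting and annotation, is not given in the sources used here. Library totals differ, so the deposited counts were not normalized. The length (another deposited column) does not vary between libraries of an assay; mRNA tables give a value 1 higher. Entries were matched between assays by ID without version and this length difference (25605 entries).

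Counts were tested in R 4.3.3 with edgeR 4.0.16 (filterByExpr with a minimum count of 10, TMM, quasi-likelihood test, 1 coefficient per group), 6 mRNA libraries in 1 model and 12 footprint libraries in another. P-values were adjusted by Benjamini-Hochberg over all features tested, two-sided. A self-test on simulated counts of independent features checked only that the median log2 change was recovered, and was passed. False calls were not part of its condition. SE is the log2 change over the square root of F. Alternatives used DESeq2 1.42.0, other scalings, filters and feature sets, a replicate block and left-out libraries.

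The design named genes by symbol. As no ID matched one, the fallback rule applied: the 2 largest rises and 2 largest falls by fitted log2 change among features called, without overlap and with at least 5 CPM in the higher line. Gene lists and cell type markers were not examined. The comparison and its lists were chosen with earlier results of these data known. The joining of features that share counts, the 0.1 and 1 CPM thresholds and the quintiles were chosen after seeing the data.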

Additional observations from a re-analysis of the deposited data

Results flagged for a closer look

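The change in UFM1-KO differed from that in UFSP2-KO, by edgeR's test of UFM1-KO against UFSP2-KO, whose contrast leaves out the WT libraries although they entered the filter, scaling and spread, in 4904 of 33671 features (14.6%). The test called all 4 named transcripts. They were chosen for their levels in the same UFM1-KO libraries, so these calls are no separate support. The log2 difference, UFM1-KO minus UFSP2-KO, was 8.35 (SE 0.63, edgeR adjusted p = 4.75e-07) for ENST00000375535.3 and 8.34 (SE 0.63, edgeR adjusted p = 4.83e-07) for ENST00000375534.7, whose counts are nearly equal. It was -10.3 (SE 0.54, edgeR adjusted p = 1.3e-08) for ENST00000010404.6 and -6.81 (SE 0.63, edgeR adjusted p = 4.09e-06) for ENST00000566827.5. Each of the 4 rests on at most 4 counts in 1 of the lines, so the fitted sizes depend on the prior count, and both UFM1-KO libraries lay on 1 side of both UFSP2-KO libraries.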

How the results depend on the processing

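The count of 618 features in mRNA was 1385 in a model of the 4 libraries compared, 1212 with DESeq2 and 274 of 13889 among entries also in the footprint tables, and 128 to 1393 with 1 library left out. It was 558 to 776 with RLE size factors, library size only, no filter, no merging, the length trend removed and the replicate block. Of the 618, 614 were called by DESeq2, and the share of rises was 15.9% with library size only against 21.8% with TMM. Fits on 1 feature per gene were not run, as IDs matched no gene.

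The labels do not say that equal letters mark a shared batch or culture. The difference a minus b correlated across 22558 features at 0.041 between WT and UFM1-KO, -0.22 between WT and UFSP2-KO and -0.69 between the knockouts, where UFM1-KO a was nearer to UFSP2-KO b (SD of the log2 difference 0.64) than to UFSP2-KO a (0.75). With the replicate block 692 features were called in mRNA, 566 of the 618 among them, and 4048 in UFM1-KO against UFSP2-KO. In footprints the replicate block gave 291 calls at the membrane, against 139, and 246 in the cytosol, against 94.

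With library size only the cytosol count was 50, of which 46% were higher against 19.1% with TMM. With 1 library left out the counts were 14 to 28 at the membrane, 9 to 110 in the cytosol and 3107 to 4626 in UFM1-KO against UFSP2-KO. Leaving out 1 library moved the median difference of longest less shortest features from -0.26 to 0.074, and that of membrane-enriched less other features from -0.069 to 0.0086. The other alternatives moved either difference by less than the spread between libraries. Depth limits the values of features with a few counts in a line.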
